A study of Mus musculus with 16 samples.

Results

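The Notch pathway was followed through 10 genes in 16 primary rhabdoid tumors of the mouse, namely the receptors Notch1, Notch2 and Notch3, the ligands Dll1, Dll3 and Jag1, and the target genes Hes1, Hes5, Hey1 and Nrarp. The genes were chosen by name and not by a threshold on their values, with earlier results of these data known, and all 10 were present among the 24982 genes of the count table and in the TPM table. Each tumor came from a different mouse of the genotype Smarcb1flox/flox;R26-CreERT2, in which a ubiquitous, tamoxifen-inducible Cre recombinase deletes Smarcb1, the SWI/SNF subunit whose loss defines rhabdoid tumors. All mice received tamoxifen before birth, and the samples included no control of undeleted or normal tissue. The 5 tumors within the brain parenchyma (intra-CNS) were induced at embryonic day 6 (E6) and collected at 30 to 180 days of age. The 6 intracranial tumors outside the parenchyma (intracranial extra-CNS) were collected at 52 to 170 days, and tamoxifen had been given at E8 in 4 of them, at E7 in 1 and at E6 in 1. The 5 extracranial tumors (back, jaw, nose and mouth) were collected at 80 to 210 days, with tamoxifen at E8 in 4 and at E6 in 1. The study places the intra-CNS tumors in its Shh subgroup and the other 11 in its Myc subgroup, partly from these same profiles, so that site and subgroup cannot be told apart here and the labelled sites were compared. The day of tamoxifen also differed with site, since no intra-CNS tumor was induced at E7 or E8, and Cre that acts in every tissue does not fix the cell in which a tumor began.

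Notch receptors are membrane proteins that are cut after they bind a ligand on a neighbouring cell. The freed intracellular part enters the nucleus, where it joins the DNA-binding protein Rbpj and a Mastermind (Maml) co-activator and switches on Hes and Hey repressors and the feedback inhibitor Nrarp. In the developing brain, cells that start to become neurons express Dll1 and Dll3, and Notch activity with Hes1 and Hes5 keeps their neighbours as neural progenitors.

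Total counts lay between 17889968 and 110177889 per tumor, and shallower libraries limit the precision of genes with few counts. Smarcb1 itself had 3.99 to 58.1 TPM (a read share scaled by transcript length), and the counts per gene do not separate its deleted part from the rest. A pair of tumors stood apart. The intra-CNS tumor of mouse 29048 had a summed level of 5 oligodendrocyte markers of 5804 TPM against 19.8 to 116.5 TPM in the other 4 intra-CNS tumors, and it had the highest Smarcb1 level. The intracranial extra-CNS tumor of mouse R26P115 gave 20.0% of its TPM to Ttr, the main secreted protein gene of the choroid plexus. For mouse 43990A the labels give an extracranial site (nose), which was kept here, while the study's table of mice counts it as intracranial extra-CNS.

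Hes5, Dll1, Dll3 and Nrarp were far higher in the intra-CNS tumors than elsewhere. Of 3 ligands 2, of 4 targets 3 and of 3 receptors 1 were called higher there. Of the 10 members, 6 rose in the intra-CNS tumors against all other tumors (edgeR's quasi-likelihood test, adjusted p under 0.05 and a fold above 2), namely Hes5, Dll3, Dll1, Nrarp, Notch3 and Hes1. None of the 10 fell by this test. For comparison, 12.9% of the 21854 genes tested were called higher and 13.1% lower. The median log2 fold change was 1.68 over the members and -0.15 over all genes tested. For Hes5, Dll3, Dll1 and Nrarp every intra-CNS tumor lay above every other tumor in TMM-scaled CPM (counts relative to library size), as was the case for 5.43% of all genes, and no member lay below throughout, as 5.72% of genes did. With 29048 and R26P115 left out together, the same 6 members were called and Notch2 joined them (log2 fold change 1.42 ± 0.47 SE, edgeR adjusted p = 0.0296). Over all genes that fit called 3072 of 21700 higher and 2808 lower, against 2829 and 2860 of 21854 with every tumor kept. RNA came from pieces of whole tumor, in which fewer cells of a type and less RNA per cell cannot be told apart.

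**Figure D1:**
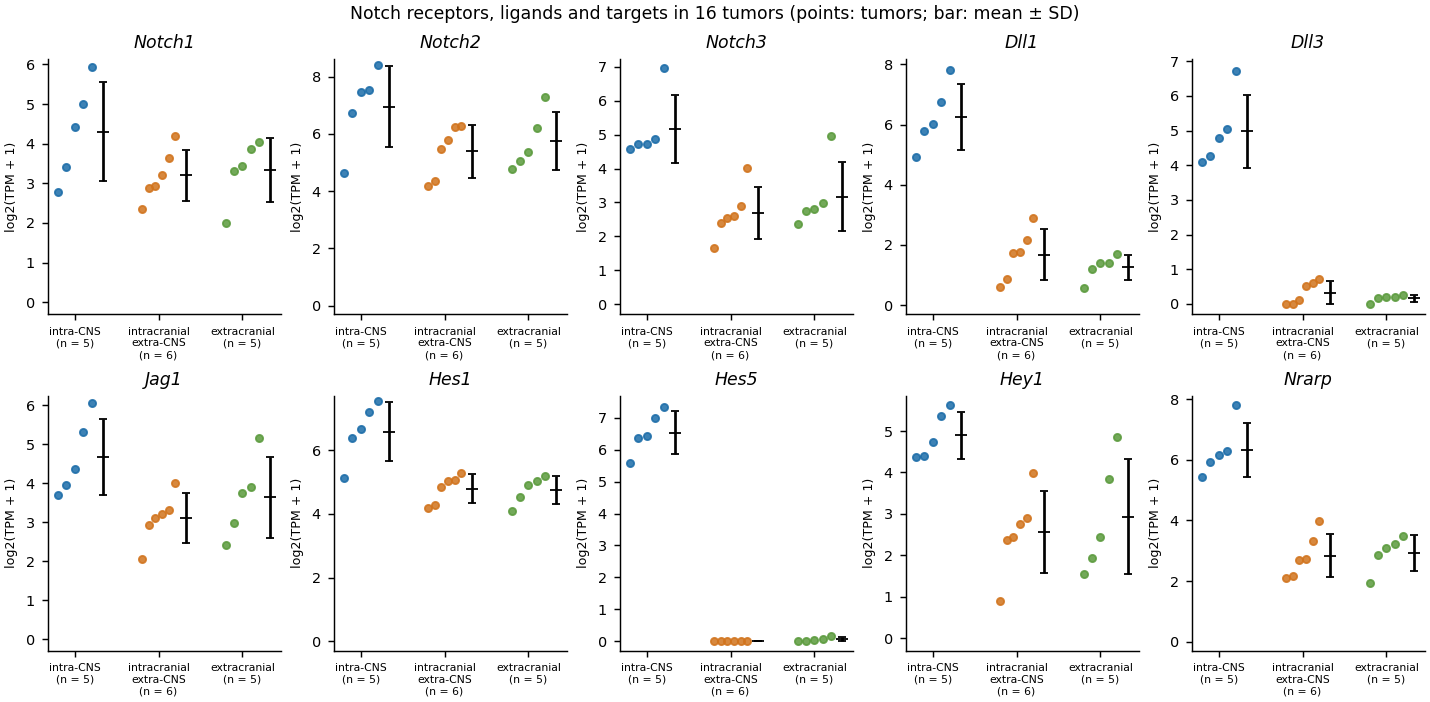
Level of each of the 10 members as log2(TPM + 1) in every tumor, with 1 point for each tumor (5 intra-CNS, 6 intracranial extra-CNS, 5 extracranial) and a bar for the mean ± SD of the group. Dll1, Dll3, Hes5 and Nrarp of the intra-CNS tumors lie above all other points. Those of Notch1, Notch2, Notch3, Jag1, Hes1 and Hey1 overlap with points of the other tumors.

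The scale mattered for the modest changes. Over genes averaging 50 counts or more, the median log2 fold change between intra-CNS and all other tumors was -0.11 with TMM scaling of the counts and 0.47 on the log2(TPM + 1) scale, so differences read higher in TPM. On the TPM scale limma called 4082 genes higher and 1324 lower, against 2829 higher and 2860 lower by edgeR. All 10 members kept a positive difference on each of the scales tried, and 8 were called on the TPM scale, with Hey1 and Jag1 added.

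Dll1 (chr17:15367354-15376872, minus strand, GRCm38) encodes a ligand that activates Notch receptors on adjoining cells. In the intra-CNS tumors its level was 29.6 TPM in 29048, 63.4 in 38594A, 106.6 in 29050A, 53.7 in R26P98 and 224.2 in R26P87. The extracranial tumors had 1.62 TPM in 43825B, 2.27 in 43987A, 1.32 in 43990A, 0.496 in 43998A and 1.66 in R26P123, and the intracranial extra-CNS tumors ranged from 0.532 to 6.47 TPM with a median of 2.37. The lowest intra-CNS tumor was thus above the highest of the others, and the groups outside the parenchyma overlapped each other. Against all other tumors Dll1 rose by 4.95 ± 0.55 (log2 fold change, SE, 5 against 11 tumors, edgeR adjusted p = 1.49e-05).

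Dll3 (chr7:28293553-28302238, minus strand) encodes a divergent ligand that stays mostly inside the cell and is known as an inhibitor of Notch signalling in the cell that makes it. Its level in the intra-CNS tumors was 16.0 TPM in 29048, 31.9 in 38594A, 26.7 in 29050A, 18.1 in R26P98 and 105.0 in R26P87. Outside the parenchyma it was close to absent, with at most 0.634 TPM and 45 counts in any tumor, and 3 of the 11 tumors had no count. The log2 fold change was 7.02 ± 0.88 (SE, edgeR adjusted p = 3.53e-05), and its size rests on those low counts. Among the intra-CNS tumors, R26P87 had the highest level of both Dll1 and Dll3, and 29048 the lowest.

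Jag1 (chr2:137081456-137116644, minus strand), a ligand of the Serrate family, had a different pattern. Its intra-CNS levels were 14.6 TPM in 29048, 38.5 in 38594A, 19.6 in 29050A, 65.1 in R26P98 and 12.0 in R26P87, so that R26P87, highest for Dll1 and Dll3, was lowest for Jag1. The levels outside the parenchyma ran from 3.18 to 34.7 TPM with a median of 8.32, and only R26P98 lay above all of these in TMM-scaled CPM. The log2 fold change of 0.91 (95% interval -0.12 to 1.94) did not pass (edgeR adjusted p = 0.160), and without 43987A, the extracranial tumor with the highest Jag1, it was 1.25 and passed (edgeR adjusted p = 0.0304).

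The make-up of the ligand transcripts also differed between the sites. Levels in TPM are scaled per transcript length and can be compared between genes. Of the summed TPM of Dll1, Dll3, Dll4, Jag1 and Jag2, Dll1 held 44.6% ± 14.2 (SD, n = 5) in the intra-CNS tumors, 9.59% ± 6.19 (n = 6) in the intracranial extra-CNS tumors and 6.21% ± 2.80 (n = 5) in the extracranial tumors. Dll3 held 18.1% ± 6.31, 1.42% ± 1.60 and 0.549% ± 0.418 in the same order. Dll1 was the most abundant ligand in 4 of 5 intra-CNS tumors and Jag1 in the other, R26P98. The ranges of the Dll1 and Dll3 shares did not overlap between the intra-CNS and other tumors, and those of Dll4, Jag1 and Jag2 did. Outside the parenchyma Dll1 led in none of the 11 tumors, and Jag1 led in 5, Dll4 in 4 and Jag2 in 2. The summed ligand level was 94.2 to 373.7 TPM in the intra-CNS tumors and 13.7 to 50.1 TPM in all others, without overlap.

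**Figure D2:**
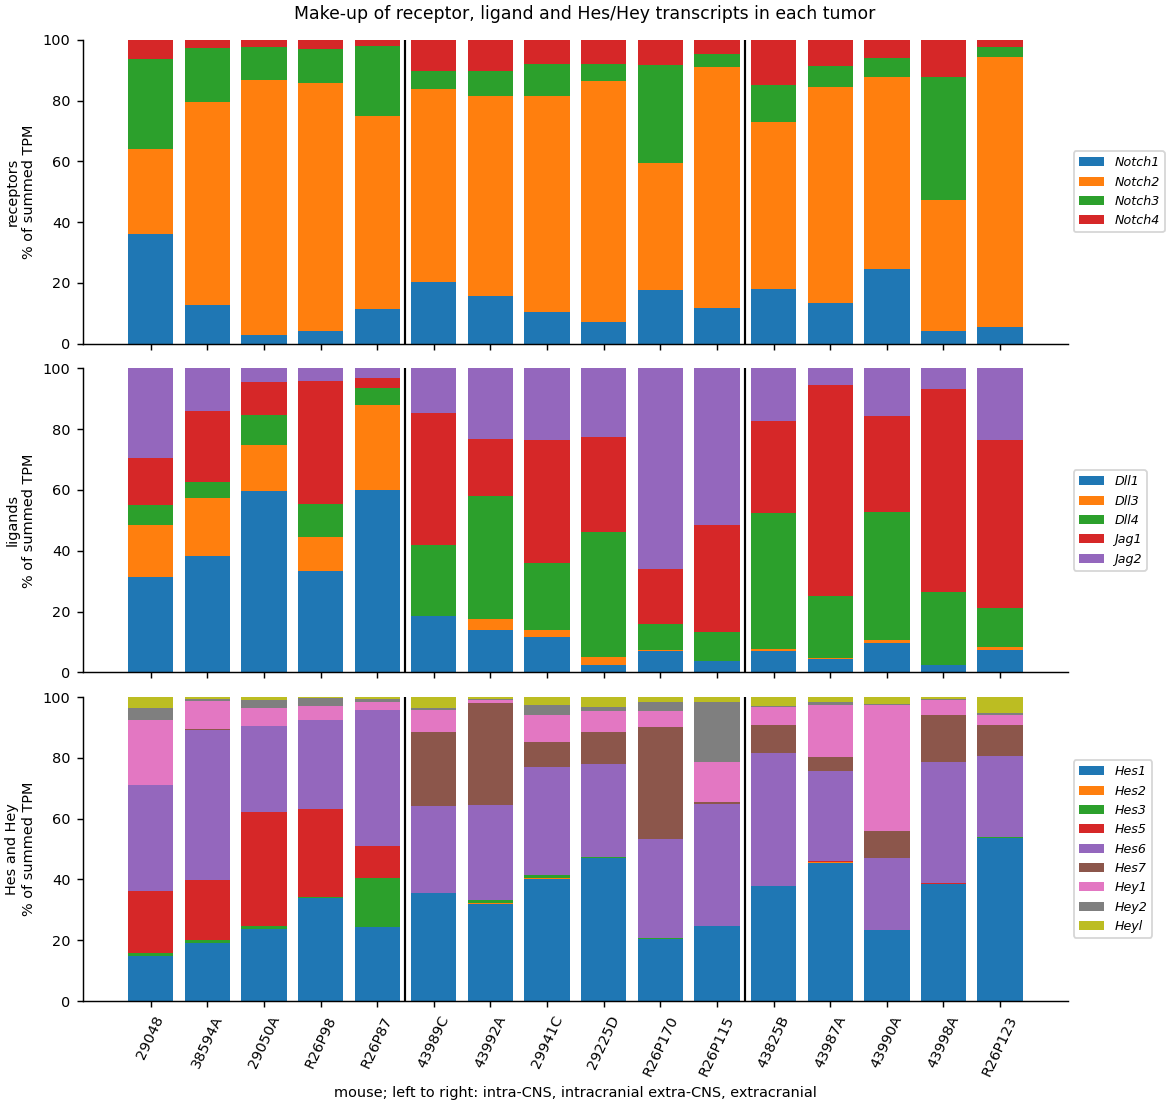
Share of the summed TPM (percent, y axis) held by each receptor (top), ligand (middle) and Hes or Hey gene (bottom) in each tumor (x axis, mouse names, with lines between intra-CNS, intracranial extra-CNS and extracranial tumors). Dll1, Dll3 and Hes5 take larger shares in the 5 intra-CNS tumors than in the others, and Notch2 leads the receptors in 15 of 16 tumors.

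Hes5 (chr4:154960923-154962371, plus strand) and Nrarp (chr2:25180758-25183339, plus strand) are target genes that Notch activity switches on directly. Their promoter windows are shown because these genes are targets that separated the sites without overlap. The ligand gene Dll1 also did so, and its windows are not shown. Each window runs from 250 bases before to 50 bases after the start of the gene as RefSeq places it on GRCm38.p6. That start is the GENCODE start for Hes5 and Nrarp, while for Dll3 it lies downstream, so that the Dll3 window is inside the GENCODE span of the gene. Capitals mark TGGGAA, the core letters bound by Rbpj, or CACNAG, the N-box bound by Hes proteins, on either strand, and Dll3 is shown as a window with no match of either.
Hes5, chr4:154960673-154960972, plus strand: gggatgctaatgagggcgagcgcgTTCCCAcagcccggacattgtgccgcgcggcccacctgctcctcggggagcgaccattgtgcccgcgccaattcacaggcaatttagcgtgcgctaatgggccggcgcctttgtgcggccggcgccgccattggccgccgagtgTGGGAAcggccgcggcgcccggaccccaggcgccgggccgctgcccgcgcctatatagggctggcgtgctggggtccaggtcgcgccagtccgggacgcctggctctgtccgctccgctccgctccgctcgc
Nrarp, chr2:25180508-25180807, plus strand: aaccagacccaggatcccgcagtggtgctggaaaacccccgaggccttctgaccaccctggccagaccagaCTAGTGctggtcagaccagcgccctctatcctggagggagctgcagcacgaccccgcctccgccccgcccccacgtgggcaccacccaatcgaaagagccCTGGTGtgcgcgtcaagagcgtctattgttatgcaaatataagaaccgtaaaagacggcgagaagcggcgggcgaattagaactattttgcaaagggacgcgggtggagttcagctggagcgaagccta
Dll3, chr7:28301736-28302035, minus strand: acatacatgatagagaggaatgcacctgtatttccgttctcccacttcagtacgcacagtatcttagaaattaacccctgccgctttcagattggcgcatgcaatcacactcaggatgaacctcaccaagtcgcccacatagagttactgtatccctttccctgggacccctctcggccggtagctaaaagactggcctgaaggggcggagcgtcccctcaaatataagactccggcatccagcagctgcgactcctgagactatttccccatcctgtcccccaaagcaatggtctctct
The Hes5 window held 2 matches of TGGGAA, which began 226 bases before the start on the minus strand and 82 bases before it on the plus strand, and no match of CACNAG. The Nrarp window held none of the former and 2 of the latter, 179 and 79 bases before the start. Of 8 members with a window in that table (Notch1, Notch2, Notch3, Dll1, Dll3, Jag1, Hes5 and Nrarp), Hes5 alone held TGGGAA and 5 held CACNAG. These 8 members had 9 windows, since Dll1 had more than 1, and only 1 of the Dll1 windows held CACNAG. The counts of members are by gene, whereas the shares that follow are by window. Among 32544 promoter windows of this length 25.4% held TGGGAA, 3.80% held 2 or more matches of it, and 42.6% held CACNAG. These matches describe letters and show no binding.

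Hes5 showed the sharpest separation of the members. Its level was 46.5 TPM in 29048, 85.4 in 38594A, 159.5 in 29050A, 125.3 in R26P98 and 81.4 in R26P87. Outside the parenchyma 8 of the 11 tumors had no count of Hes5, all 6 intracranial extra-CNS tumors among them, and the other 3 tumors had 4 counts in all, at most 2 in a tumor. Against a floor of 3 counts in the library where that floor is highest (0.170 CPM), the mean of the intra-CNS tumors was at least 239-fold higher and the lowest of them at least 111-fold higher. The test passed (edgeR adjusted p = 1.58e-07), and no fold is given between the groups outside the parenchyma, both at or under the floor. A count of 0 means that Hes5 was not detectable at this depth.

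Nrarp encodes a small ankyrin-repeat protein that limits Notch activity by binding the nuclear complex. Its intra-CNS levels were 41.7 TPM in 29048, 77.4 in 38594A, 60.0 in 29050A, 71.1 in R26P98 and 224.9 in R26P87. Outside the parenchyma it was measurable in every tumor, at 2.84 to 14.6 TPM with a median of 6.23. Nrarp rose by 3.23 ± 0.40 (log2 fold change, SE, edgeR adjusted p = 3.15e-05). Unlike Hes5, Nrarp was therefore lower rather than undetectable in the tumors outside the parenchyma.

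Hes1 (chr16:30064384-30067796, plus strand), a repressor that many tissues express, changed less. It had 33.7 TPM in 29048, 83.2 in 38594A, 100.6 in 29050A, 146.4 in R26P98 and 185.6 in R26P87, against 15.9 to 38.5 TPM with a median of 29.3 in the other 11 tumors. All intra-CNS tumors but 29048 exceeded the others. Hes1 rose by 1.47 ± 0.30 (log2 fold change, SE, edgeR adjusted p = 0.00163). Hey1 (chr3:8663359-8667256, minus strand), a related repressor known from blood vessels and bone, had 19.6 to 48.1 TPM in the intra-CNS tumors with 29048 highest, and 0.881 to 28.2 TPM elsewhere with 43990A and R26P115 highest. Its log2 fold change of 1.41 (95% interval 0.16 to 2.66) did not pass (edgeR adjusted p = 0.0762). Without 43990A it was 1.80 and passed (edgeR adjusted p = 0.0157), as it did without R26P115 (1.59, edgeR adjusted p = 0.0429).

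Across the Hes and Hey genes, Hes5 held 23.5% ± 10.1 (SD, n = 5) of the summed TPM in the intra-CNS tumors and at most 0.204% in any other tumor. Hes1 held 23.2% ± 7.03 in the intra-CNS tumors and 36.2% ± 10.5 (n = 11) in the others. The genes summed were Hes1, Hes2, Hes3, Hes5, Hes6, Hes7, Hey1, Hey2 and Heyl. Hes6, which is not a typical Notch target, held 37.3% ± 9.47 in the intra-CNS tumors and 32.9% ± 6.26 in the others. It was the most abundant of these genes in 3 of 5 intra-CNS tumors, so the sum is not one of Notch targets alone. The summed level of these genes was 226.0 to 759.2 TPM in the intra-CNS tumors and 46.4 to 112.9 TPM elsewhere. The summed level did not overlap between the groups, although Hes1 and Hey1 overlapped in TMM-scaled CPM.

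Among the receptors, Notch3 (chr17:32120820-32166852, minus strand), the receptor known for its role in the muscle and pericytes of small vessels, was the member called higher. Its intra-CNS levels were 25.4 TPM in 29048, 28.3 in 38594A, 22.7 in 29050A, 25.4 in R26P98 and 124.1 in R26P87. The extracranial tumors had 5.98 TPM in 43825B, 6.92 in 43987A, 4.15 in 43990A, 30.3 in 43998A and 5.66 in R26P123, and the intracranial extra-CNS tumors 2.16 to 15.3 TPM with a median of 4.92. R26P87 stood high among the intra-CNS tumors and 43998A among the extracranial tumors. The log2 fold change was 1.90 ± 0.54 (SE, edgeR adjusted p = 0.0131), and without R26P87 it was 1.08 and did not pass (edgeR adjusted p = 0.126).

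Notch2 (chr3:98013527-98150361, plus strand) was the most abundant receptor in all tumors but 29048. It had 23.8 TPM in 29048, 105.6 in 38594A, 177.4 in 29050A, 184.4 in R26P98 and 338.2 in R26P87, and 17.2 to 157.2 TPM with a median of 43.5 outside the parenchyma. In TMM-scaled CPM, 29048 lay below and R26P87 above all 11 tumors outside the parenchyma. The log2 fold change of 1.05 (95% interval -0.03 to 2.12) did not pass (edgeR adjusted p = 0.121). It passed without 29048 (1.33, edgeR adjusted p = 0.0419) and without R26P123 (1.32, edgeR adjusted p = 0.0422), the extracranial tumor with the highest Notch2.

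Notch1 (chr2:26457903-26516663, minus strand) spread widely among the intra-CNS tumors, with 30.7 TPM in 29048, 20.3 in 38594A, 5.89 in 29050A, 9.58 in R26P98 and 60.2 in R26P87. The other tumors had 3.00 to 17.2 TPM with a median of 8.84. Its log2 fold change was 0.87 (95% interval -0.10 to 1.83, edgeR adjusted p = 0.150), and it passed under none of 25 alternatives. R26P87 had the highest level of all 3 receptors, whereas 29050A and R26P98 had more Notch2 than 38594A and 29048 but less Notch1. Of the summed TPM of Notch1 to Notch4, Notch2 held 64.7% ± 22.5 (SD, n = 5) in the intra-CNS tumors and 65.6% ± 14.7 (n = 11) in the others, so the ranges of the Notch2 share overlapped, as did those of the other receptors.

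Within the groups the order of the members by median level also differed. In the intra-CNS tumors it ran from Notch2 (177.4 TPM) through Hes1 (100.6), Hes5 (85.4), Nrarp (71.1), Dll1 (63.4), Dll3 (26.7), Hey1 (25.7), Notch3 (25.4) and Notch1 (20.3) to Jag1 (19.6 TPM). In the 11 other tumors it ran from Notch2 (43.5 TPM) through Hes1 (29.3), Notch1 (8.84), Jag1 (8.32), Nrarp (6.23), Notch3 (5.66), Hey1 (4.47), Dll1 (1.66) and Dll3 (0.135) to Hes5 (0 TPM). In either order all 9 pairs of neighbours overlapped in their range over tumors. Compared within each tumor, Dll1 was above Dll3 in 5 of 5 intra-CNS tumors and in 11 of 11 others. Hes1 was above Notch1 in 11 of 11 tumors outside the parenchyma. No other pair of neighbours kept its order in every tumor. Dll1 thus stood above Jag1 in the former order and below it in the latter.

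Split by site, the intra-CNS tumors were compared with each outer group in a fit of all 16 tumors, so these comparisons share the intra-CNS tumors. Against the intracranial extra-CNS tumors 6 of 10 members rose, where 10.8% of all genes were called higher and 12.2% lower, and 5 did not overlap in CPM, where 7.88% of genes were higher and 8.31% lower without overlap. Against the extracranial tumors 5 of 10 rose, where 12.1% were called higher and 12.9% lower, and 4 did not overlap, where 11.8% of genes were higher and 10.7% lower without overlap. Dll1 differed by 4.61 ± 0.67 (log2, SE, edgeR adjusted p = 0.000259) and by 5.51 ± 0.76 (edgeR adjusted p = 0.000166), respectively. Nrarp differed by 3.21 ± 0.51 (edgeR adjusted p = 0.000452) and 3.25 ± 0.55 (edgeR adjusted p = 0.000588). Hes1 differed by 1.43 ± 0.37 (edgeR adjusted p = 0.00984) and 1.52 ± 0.39 (edgeR adjusted p = 0.00951). The direct comparison of the outer groups passed for none of these genes.

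Notch3 was the member called against only the intracranial extra-CNS tumors. It differed from these by 2.30 ± 0.64 (log2, SE, edgeR adjusted p = 0.0153) and from the extracranial tumors by 1.53 ± 0.67 (edgeR adjusted p = 0.0971). Without R26P87 the former was 1.48 and did not pass (edgeR adjusted p = 0.0716), and without 43998A the latter was 2.49 and passed (edgeR adjusted p = 0.00907). The direct comparison of the outer groups did not pass for Notch3 (-0.76, 95% interval -2.08 to 0.56, edgeR adjusted p = 0.621).

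**Figure D3:**
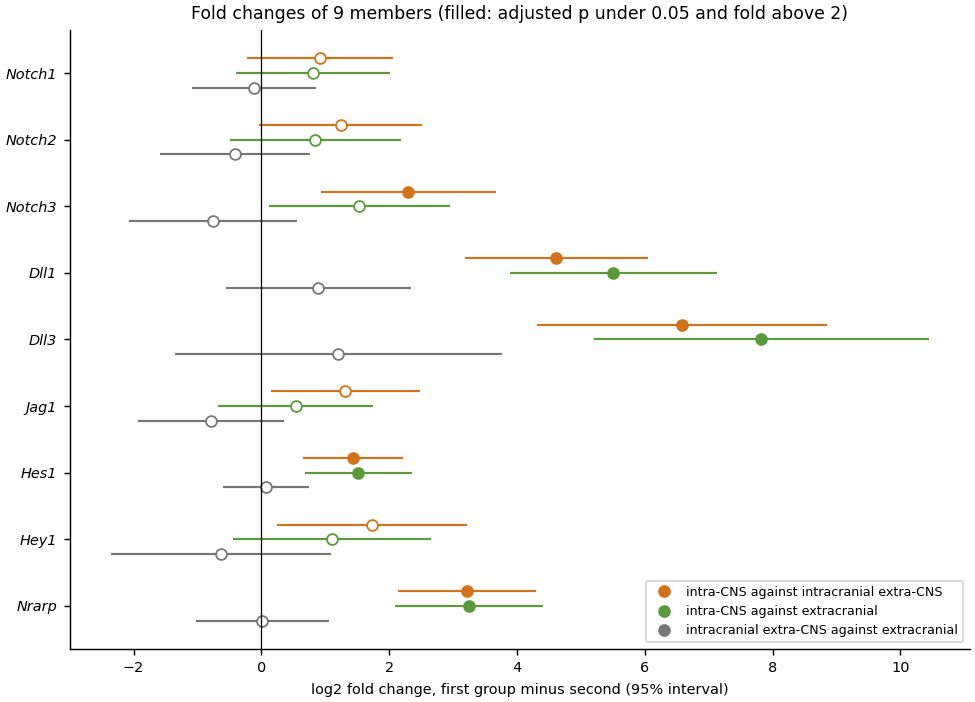
Log2 fold change (x axis, first named group minus second) with its 95% interval for 9 members (y axis) in 3 comparisons of site, with filled points for calls. Hes5 is left out because it was at or under the floor outside the parenchyma, and the intervals of the intracranial extra-CNS against extracranial comparison all cover 0.

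Between the intracranial extra-CNS and extracranial tumors, no member was called, and 1 gene of 21261 (0.00470%) was. Without overlap in CPM, 0.541% of genes were higher and 0.334% lower in the intracranial extra-CNS tumors. DESeq2 called 490 genes there and none of the 8 members to which it gave an adjusted p, which leaves out Hes5 and Notch3, and at an unadjusted p under 0.05 edgeR gave 2606 genes. Among the members that unadjusted level was reached by Hes5 alone, which was at or under the floor in all these tumors. The intervals leave room for sizeable differences. That of Hes1 ran from -0.59 to 0.74, that of Nrarp from -1.03 to 1.05 and that of Hey1 from -2.36 to 1.09 on the log2 scale.

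The day of tamoxifen was examined with the tumors induced at E6, which left the 5 intra-CNS tumors and a pair outside the parenchyma (43825B and R26P170). There 16.9% of 20904 genes were called, 1315 higher and 2218 lower. Hes5, Dll3, Dll1 and Nrarp were called, and Hey1 joined them (log2 fold change 2.19, edgeR adjusted p = 0.0207). Hes1 differed by 1.67 (edgeR adjusted p = 0.127) and Notch3 by 1.53 (edgeR adjusted p = 0.254) and neither passed. Of the further genes described next, Dlk2, Fbxw7, Hes2, Hes3, Hes6, Lfng and Maml3 were not called at E6 alone either. In 3 numbered intra-CNS mice against 8 others the 10 differences of mean log2 CPM ran from 0.39 to 9.12, and in 2 intra-CNS mice named R26P against 3 others from 0.73 to 9.66, all positive. The labels name no batch, and whether the 2 naming schemes mark one is not given.

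Of 43 further genes of the pathway, 10 rose and 4 fell in the intra-CNS tumors against all others, beside the 12.9% and 13.1% over all genes. Their median log2 fold change was 0.15. In the nuclear complex, Rbpj, the DNA-binding partner of cleaved Notch, fell by 2.18 on the log2 scale (SE 0.43, edgeR adjusted p = 0.00111). Its level was 28.0 to 64.9 TPM in the intra-CNS tumors and 126.0 to 225.3 TPM in 9 of the other tumors, while R26P115 had 27.4 and 43990A 40.7 TPM. Rbpj was thus lower in the tumors in which Hes5 and Nrarp were higher, apart from those 2 outer tumors. GENCODE names 2 pseudogenes after Rbpj, and whether reads were split between them and Rbpj was not tested. The co-activator genes Maml2 (2.47, edgeR adjusted p = 0.00112) and Maml3 (1.31, edgeR adjusted p = 0.00956) rose, and Maml1, Spen and Kdm5a were not called.

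Of the fringe and glycosyltransferase genes, whose products add sugars to the receptors and so tune which ligands they bind, 2 of 5 rose. Lfng had 77.2 to 327.9 TPM in the intra-CNS tumors and 9.51 to 58.2 TPM elsewhere, and rose by 1.80 (log2, SE 0.41, edgeR adjusted p = 0.00304). In TMM-scaled CPM its ranges overlapped between the intra-CNS and other tumors. Lfng was also called against the extracranial tumors alone. Among other settings, that call was lost with the naming scheme as a covariate (1.16, edgeR adjusted p = 0.0587) and without R26P87 (0.80, edgeR adjusted p = 0.126). Rfng rose by 1.55 (SE 0.28, edgeR adjusted p = 0.000663). None of the 8 receptor cleavage genes, the ADAM proteases and the subunits of gamma-secretase, was called, although 4 of them had an adjusted p under 0.05 with a smaller fold. All 8 log2 fold changes were negative with TMM scaling (median -0.60), but 4 of 8 were positive on the TPM scale, so their direction depended on the scale.

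Among other receptors and ligands, the Notch-binding membrane proteins Dner (3.58, edgeR adjusted p = 0.00701) and Dlk2 (2.88, edgeR adjusted p = 0.0318) rose and Dlk1 (-6.59, edgeR adjusted p = 0.00102) fell. The Dlk2 call was lost in 5 of 25 alternatives (edgeR adjusted p up to 0.157), among them leaving out 29048, 38594A or 43989C, and 29048 and 38594A had 24.4 and 34.6 TPM against 0.637 to 4.18 in the other intra-CNS tumors. R26P123 had 160.8 TPM of Dner, far above the other outer tumors, and the log2 fold change without it was 4.84. Dlk1, an imprinted non-canonical ligand of immature mesenchyme and other embryonic tissues, had 1.33 to 29.7 TPM in the intra-CNS tumors and 27.1 to 1427 TPM in the others. The low end of the latter was made up of 29941C, R26P115 and 43990A. Notch4 (-0.44, edgeR adjusted p = 0.305), Dll4 (0.66, edgeR adjusted p = 0.181) and Jag2 (0.58, edgeR adjusted p = 0.479) did not pass, and on the TPM scale Notch4 changed sign. Jag2 was called against the extracranial tumors (1.81, edgeR adjusted p = 0.0428), and leaving out any of 8 of the 16 tumors singly ended that call.

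Of the genes for ligand endocytosis and receptor turnover, Dtx1 (4.48, edgeR adjusted p = 0.00023), a regulator and known target of Notch, and Fbxw7 (1.40, edgeR adjusted p = 0.000935), which marks cleaved Notch for degradation, rose among 12 genes. Of the 6 other Hes and Hey genes, Hes6 (2.21, edgeR adjusted p = 0.000106) and Hes3 (6.32, edgeR adjusted p = 0.00107) rose. Hes6 promotes neuronal differentiation and is not a typical Notch target, and it had 78.4 to 338.6 TPM in the intra-CNS tumors against 15.9 to 45.4 TPM. DESeq2 did not call Hes3. Its level reached 120.9 TPM in R26P87 and 1.76 to 5.03 TPM in the other intra-CNS tumors. Without R26P87 the log2 fold change of Hes3 was 3.18 and still passed (edgeR adjusted p = 0.0311). Hes7, the oscillator of somite formation, fell by 4.81 (edgeR adjusted p = 0.000815), from 3.71 to 34.0 TPM in 10 of the outer tumors to 0.23 to 0.919 TPM, with R26P115 at 0.661 TPM. Hes2 was called lower at a mean of under 0.1 TPM in both groups, and the call was lost in 16 of 24 alternatives.

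**Figure D4:**
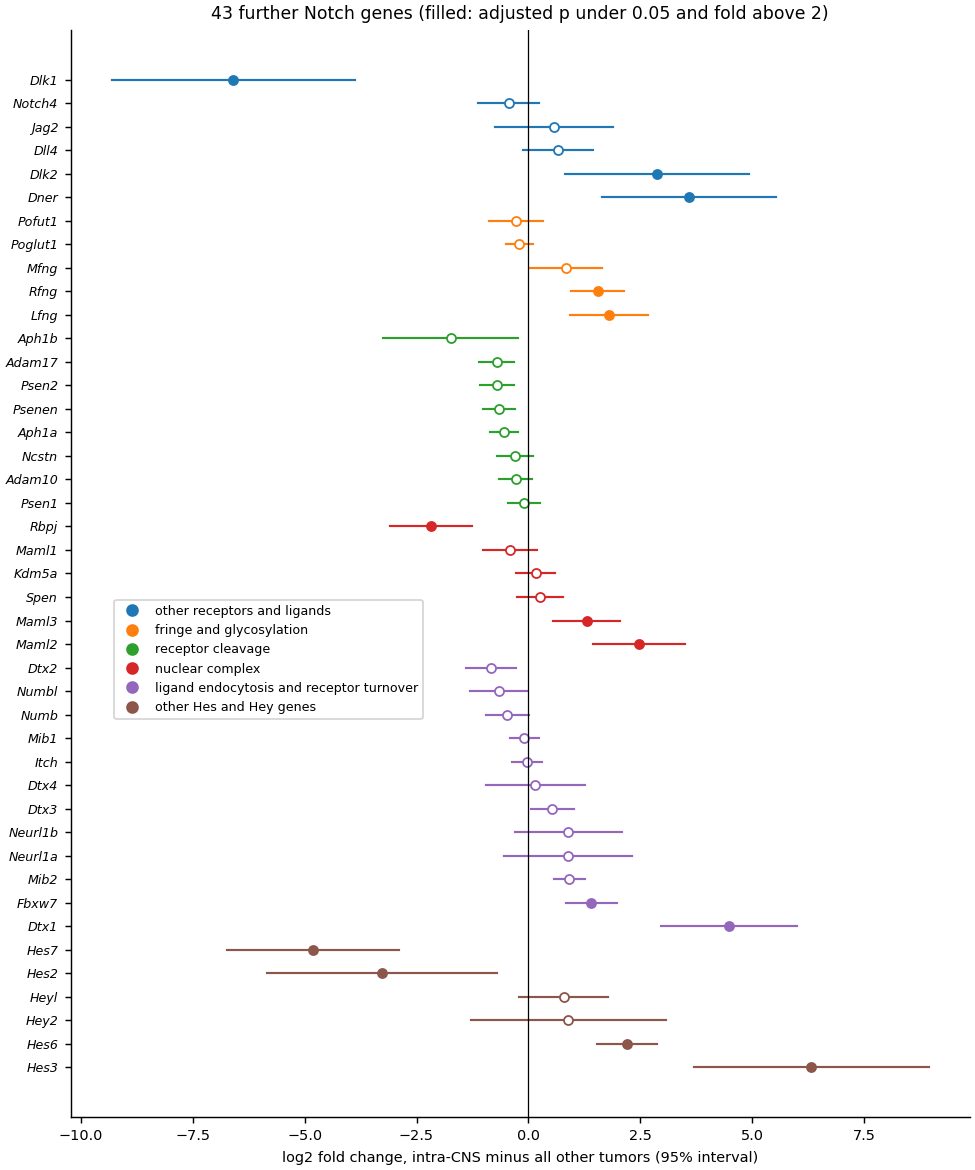
Log2 fold change between intra-CNS and all other tumors (x axis) with its 95% interval for the 43 further Notch genes (y axis), coloured by list, with filled points for calls. The 10 genes that rose and the 4 that fell are spread over 5 of the 6 lists, and the receptor cleavage genes lie at or below 0 on this scale.

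**Figure D5:**
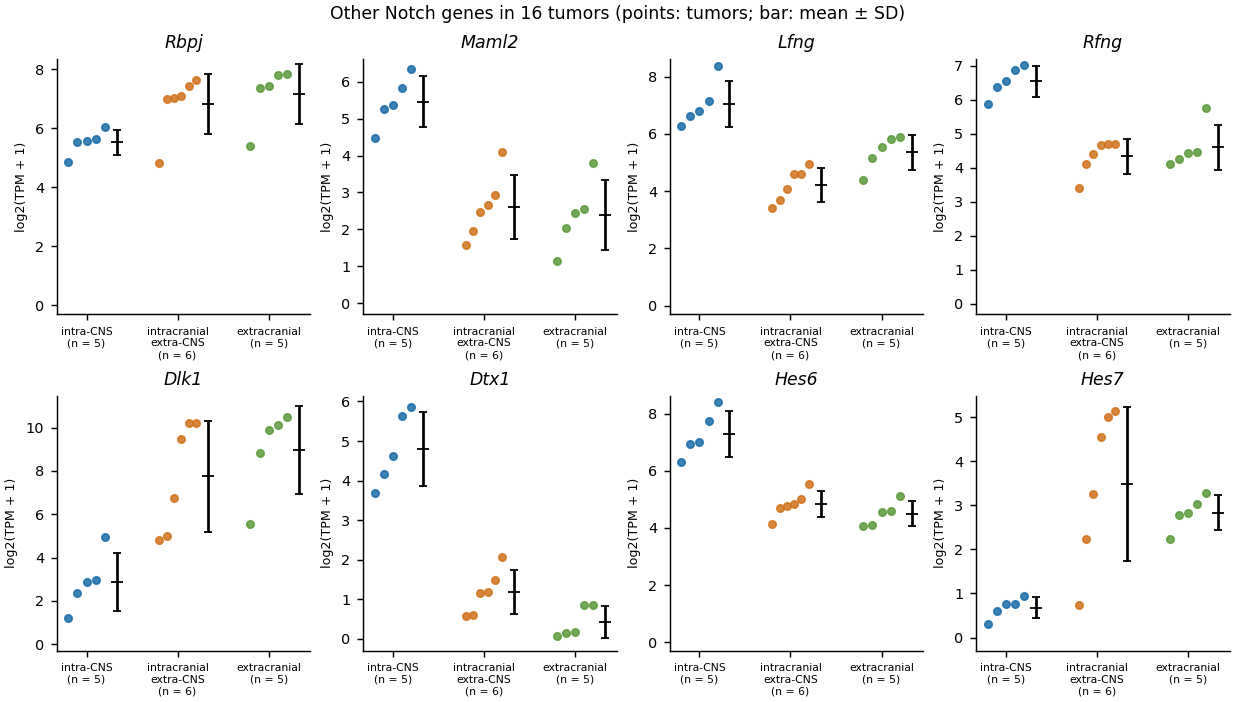
Level of 8 of the further Notch genes as log2(TPM + 1) in every tumor (points), with the mean ± SD of each group as a bar. R26P115 and 43990A are the low points of Rbpj outside the parenchyma, at 27.4 and 40.7 TPM against 28.0 to 64.9 TPM in the intra-CNS tumors.

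Markers of other cell types moved with the same comparison. Over all genes 12.9% were called higher and 13.1% lower. Of 7 neural progenitor markers 5 rose, and their summed level was 1861 to 3915 TPM in the intra-CNS tumors and 19.8 to 284.6 TPM in the others. All 5 oligodendrocyte, 4 of 7 neuron and 1 of 5 astrocyte markers rose as well. The summed oligodendrocyte markers were 7.81 to 89.2 TPM outside the parenchyma, a range that the intra-CNS tumors other than 29048 overlapped. The summed neuron markers were 213.8 to 3840 TPM in the intra-CNS tumors and 19.2 to 480.5 TPM in the others, and those of astrocytes 127.6 to 1564 and at most 566.9 TPM, with 29048 highest for both. All 6 macrophage markers and all 6 fibroblast markers fell. The summed fibroblast markers were 105.0 to 525.8 TPM in the intra-CNS tumors and 545.4 to 7795 TPM in the others, and those of macrophages were 342.7 to 538.5 and 380.5 to 3981 TPM. Of 7 mural cell markers 1 fell and none rose, of 7 endothelial markers 2 fell and of 6 skeletal muscle markers 3 fell. The shares for mural cell and astrocyte markers are near those over all genes. The part of these cell types in the levels of the Notch genes was not tested.

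Over the 11 tumors outside the parenchyma, the genes whose levels ran most like each member were sought among 14274 genes that averaged 50 counts or more there. Hes5 and Dll3 were too low for this. The closest gene was Pla2g4a for Jag1 (Pearson r of log2 CPM 0.93, Spearman rho 0.93), Nfia for Hey1 (r = 0.92, rho = 0.85), Slc2a4 for Notch1 (r = 0.90, rho = 0.90) and Cd163, a macrophage gene, for Dll1 (r = 0.89, rho = 0.92). It was Prkag2 for Notch3 (r = 0.89, rho = 0.64), Rgs1 for Nrarp (r = 0.88, rho = 0.85), Csrp1 for Hes1 (r = 0.86, rho = 0.58) and Pcsk5 for Notch2 (r = 0.86, rho = 0.85). No member was among the closest 3 genes of another. Each was picked as the highest value over all these genes in the same 11 tumors, whose depth and tissue make-up affect both genes of a pair, and serves as a description.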

How the data were processed

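Whole tumor RNA of 16 mice was sequenced from stranded mRNA libraries (TruSeq Stranded mRNA), and per the labels the submitters' processing notes name Trim Galore, FastQC, STAR 2.5.3a, Picard and the build mm10. The raw read counts per gene (24982 genes) and the TPM values (24951 genes), which the authors scaled by length and depth, were used as deposited, and the annotation and the strand setting of the counting are not given in the sources used here. Without that setting, reads of Notch1, Notch3, Dll1, Hes5 and Nrarp cannot be told apart from those of genes on the opposite strand that overlap them. On the same strand, Notch1 overlaps Mir6996 and Notch2 overlaps Gm42819 and Gm42820, which no strand setting would separate. Positions came from GENCODE M21 (GRCm38).

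Counts were tested with edgeR 4.0.16 (TMM, quasi-likelihood test) in R 4.3.3 on genes with a count in any tumor, with Benjamini-Hochberg adjustment over all of them, and calls needed an adjusted p under 0.05 together with a log2 fold change beyond 1 in either direction. The intra-CNS comparisons used all 16 tumors, and the remaining comparison the 11 tumors outside the parenchyma. The scripts were tested on simulated data. Every tumor came from its own mouse, and nothing else says how far library preparation was shared. Alternatives were DESeq2 1.42.0, limma 3.58.1 on log2(TPM + 1) and log2(TPM + 0.1), DESeq2 size factors, filterByExpr, no fold threshold, the naming scheme of the mice as a covariate, 43990A as intracranial, a single day of tamoxifen, and each tumor left out in turn. Leaving out 29048 and R26P115 together was added after the data were seen.

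The members, the lists of further Notch genes and the marker lists were chosen with earlier results of these data known. Named were the members, Rbpj, Notch4, Dll4, Jag2 and Lfng, at most 15 called genes of the further lists by adjusted p, the genes most like each member, and Smarcb1. The summed marker levels and Ttr are given beside them, and 1 marker gene is not reported here. Protein sequences were not used here, and for Hes1 and Hey1 no promoter window is shown.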

Additional observations from a re-analysis of the deposited data

Results flagged for a closer look

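In 2 of 29 groups of tumors tested, a single tumor lay farther from the rest than Dixon's 95% critical value allows, and chance flags about 1 in 20 groups. Both concerned Notch3. In the intra-CNS tumors R26P87 was highest, at 6.97 on the log2(TPM + 1) scale (124.1 TPM, with the next tumor at 28.3 TPM). In the extracranial tumors 43998A was highest, at 4.97 (30.3 TPM, with the next at 6.92 TPM). R26P87 was also the highest intra-CNS tumor for Notch1, Notch2, Dll1, Dll3, Hes1 and Nrarp, and the lowest for Jag1.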

How the results depend on the processing

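Each member stayed higher in the intra-CNS tumors than in all others under every alternative that gave it an adjusted p (25, and 24 for Notch3), and 5 to 8 were called, Hes5, Dll3, Dll1 and Nrarp each time. Over all genes, 3533 were called among tumors induced at E6 against 5689, and leaving out single tumors gave 4766 to 6649. DESeq2 gave no adjusted p for Notch3 in any of the 4 comparisons. Between the intracranial extra-CNS and extracranial tumors 1 gene was called, against 490 with DESeq2, 2 with limma on log2(TPM + 0.1), 0 at E8 alone, 0 without 29048 and R26P115, and 0 to 3 with single tumors left out. No member was called there, and directions of small differences turned. With 43990A as intracranial, Hes1 was -0.18, Hey1 0.69 and Notch1 0.18, and at E8 alone Notch1 was 0.024. Nrarp was -0.11 with limma on log2(TPM + 0.1) and -0.091 on log2(TPM + 1). With single tumors left out the log2 differences ran from -0.094 to 0.21 for Hes1, -1.19 to 0.15 for Hey1, -0.37 to 0.057 for Notch1, -0.65 to 0.18 for Notch2, -1.22 to 0.17 for Notch3 and -0.37 to 0.21 for Nrarp. Jag2 was -0.82 against all others at E6 alone, and against the intracranial extra-CNS tumors -0.24 without 29048 and R26P115 and -0.31 to 0.77 with single tumors left out. Notch4 turned to 0.13 and 0.11 (limma, pseudocounts 0.1 and 1) against all others and to 0.27 and 0.23 against the intracranial extra-CNS tumors. The cause was not tested. Low counts limit the sizes for Dll3 and Hes5. No paired analysis was possible because the groups hold tumors of different mice, with 1 tumor from each.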
